A study of Mus musculus with 24 samples.

Results

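The comparison described here is that of C2C12 muscle cultures driven to contract with light at 1 Hz against cultures that were not stimulated, in the experiment with daily sessions of 60 min. Its members were taken from the labels: 6 libraries labelled 1Hz and 6 labelled Control, that is 12 of the 24 libraries of the experiment, whose other 12 were stimulated at 4 Hz (6) and 10 Hz (6). C2C12 is an established mouse myoblast line that fuses into twitching multinucleate fibers in low-serum medium. All cultures of all groups, the controls included, carried the same modification, the light-gated cation channel ChR2(H134R) fused to tdTomato, and came from a single such line, were grown and differentiated on grooved fibrin gels with horse serum and IGF-1, and had their medium changed daily shortly before the session. The 6 libraries of a group are biological replicates by the methods of the study. The 24 libraries came from a single experiment, so that the spread between replicates is that within it. Sessions began at the start of differentiation and were repeated daily. The controls also twitched spontaneously, and no group received light without contracting, so that an effect of light and an effect of contraction cannot be told apart. The interval between the last session and lysis is not given in the sources used here.

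Each twitch releases calcium from the sarcoplasmic reticulum. Calcium, load on the membrane and energy use are each known to act on transcription in muscle: MAP kinases, CREB and SRF switch on immediate early genes within minutes, calcineurin and calcium/calmodulin kinases act over longer times, and integrins and YAP respond to tension. Differentiation of myoblasts is driven by the myogenic factors, with Myf5 and Myod1 in committed precursors and Myog in cells that fuse, while Pax7 marks the muscle stem cell. These roles are background and were not measured here.

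The methods of the study describe the libraries as poly(A)-selected. The labels add that low-input samples were depleted of ribosomal RNA, without saying which, so that the method used for each library is not known. Total estimated counts were 8546495 to 18159089 at 1 Hz and 10474902 to 16749490 in the controls. Levels are given as CPM, the count of a gene relative to the library size as scaled by the TMM factors, which do not correct for gene length and are compared only within a gene. Of 56941 genes listed, 27870 had a count in any library and 13315 passed the filter on low counts and were tested with edgeR's quasi-likelihood test, fitted over all 24 libraries, and every adjusted p below is from that test with Benjamini-Hochberg adjustment over the 13315 genes unless another is named. A gene was called changed at an adjusted p under 0.05 and a log2(fold change) beyond 0.5 in size. Members of gene groups are counted as having risen or fallen at an adjusted p under 0.05 alone, whatever the size of the change.

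Some of the 1 Hz libraries stood apart from the others of their group. For each library, the log2 level of every gene was set to its mean in the controls. The median over the 3326 genes of shortest exon length minus that over the 3325 of longest is the short-minus-long difference. It was 0.535 in 1 Hz replicate 4 and 0.454 in 1 Hz replicate 6, against -0.064 to 0.153 in the other 4 and -0.065 to 0.158 in the controls. The same 2 libraries gave 5.52% and 6.73% of their TPM (the length-corrected share of transcripts) to genes of the mitochondrial genome, against 2.38 to 2.98% in the other 1 Hz libraries and 2.43 to 4.79% in the controls, and 19.6% and 20.2% to cytosolic ribosomal proteins, against 15.4 to 18.7% and 14.6 to 16.6%. High values were also found outside these 2 libraries. At 4 Hz the short-minus-long difference was 0.128 to 0.543 and the cytosolic ribosomal protein share 16.977 to 22.045%. The mitochondrial genome share there was 0.792 to 11.659%. At 10 Hz these ranges were -0.123 to 0.258, 14.858 to 17.11% and 2.563 to 4.382%. Whether the values of 1 Hz replicates 4 and 6 go with stimulation or with single libraries was not tested. Between 1 Hz and the controls, the 3326 genes of the shortest exon length had a median log2(fold change) of 0.183, with 390 called higher and 142 lower. The 3325 with the longest exons had one of -0.035, with 150 higher and 316 lower. A different library, 1 Hz replicate 5, lay within the range of the controls on the first principal component of the 12 libraries (25.7% of variance). Its score was -3.46, against 12.3 to 15.3 in the other 1 Hz libraries and -19.6 to -2.59 in the controls. The share of TPM in ribosomal RNA genes was 0.449 to 1.10% at 1 Hz and 0.153 to 0.678% in the controls. What part these differences between libraries have in the results was not tested, and values without replicates 4 and 6 are given below wherever they end a call.

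**Figure D1:**
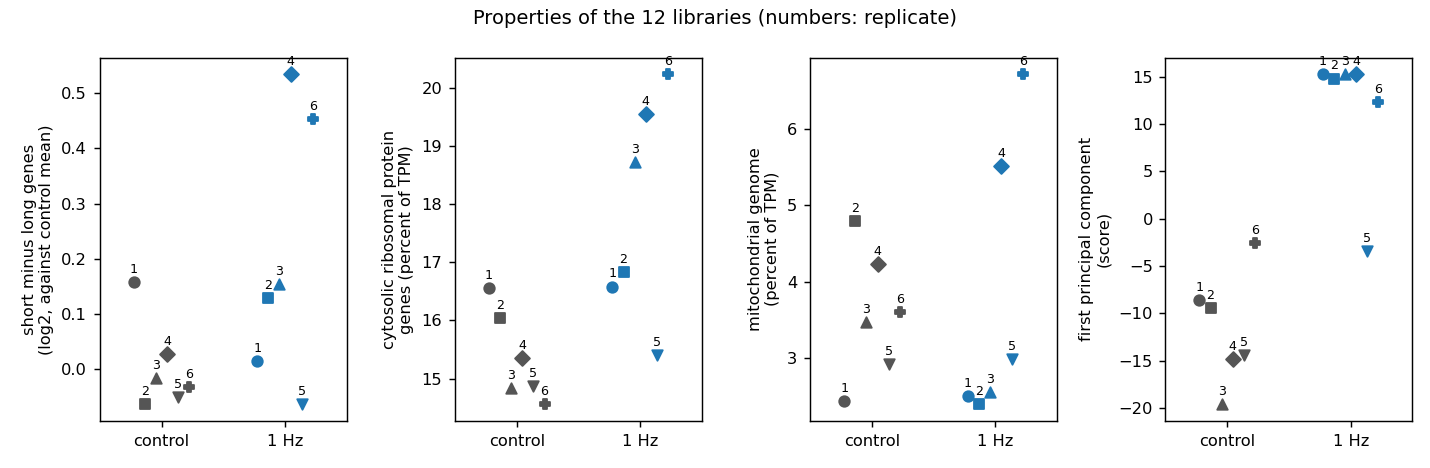
Each point is 1 of the 12 libraries, with its replicate number: controls in gray, 1 Hz in blue. The panels show the short-minus-long difference (log2), the percent of TPM from cytosolic ribosomal proteins and from the mitochondrial genome, and the score on the first principal component. In the first 3 panels 1 Hz replicates 4 and 6 are the 2 highest points, and 1 Hz replicate 5 lies within the range of the controls in the last.

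Against the controls, 1988 genes (14.9% of those tested) were called changed at 1 Hz, 958 of them higher (7.19%) and 1030 lower (7.74%). At an adjusted p under 0.05 alone, 2554 genes were higher (19.2%) and 2408 lower (18.1%), and these shares are the background for the counts of each gene group below. Most changes were small: 124 genes rose and 149 fell by more than 1 on the log2 scale, and 8 rose and 8 fell by more than 2. Protein-coding genes made up 804 of the higher and 984 of the lower calls, and lncRNAs 87 and 28. Among the 958 higher genes, 372 (38.8%) had all 6 stimulated libraries above all 6 controls, and 288 (30.1%) had 5 of 6, with 1 Hz replicate 5 as the exception in 158 of these (54.9%). Among the 1030 lower genes, 688 (66.8%) had all 6 below, and 208 (20.2%) had 5 of 6, with replicate 5 as the exception in 97 (46.6%). Over all tested genes, 739 (5.55%) had all 6 stimulated libraries above the controls and 1142 (8.58%) below. Without 1 Hz replicates 4 and 6, a choice made after seeing the data, 521 of the 958 higher calls (54.4%) and 774 of the 1030 lower calls (75.1%) were still made. In that fit 13% of all genes were higher and 16.1% lower at an adjusted p under 0.05 alone, which is the background for counts given without these libraries, and with the short-minus-long difference as a covariate (the length covariate, also added after seeing the data) the shares were 15.2% and 15.5%. That covariate is made from the levels of tested genes and averaged 0.203 at 1 Hz and 0.003 in the controls. It can therefore take up part of a difference between the groups. Without 1 Hz replicate 4, 5 or 6 alone, 13.5%, 21.6% and 14.1% of genes were higher and 17.2%, 19.4% and 18.1% lower. On log2(TPM + 1) values, a scale that sets every sample to the same total per length, the median difference of all genes was -0.14 (0.04 on counts), so that differences on that scale are read against it, and 205 genes were called higher and 1707 lower by limma (3.64% and 21.9% at an adjusted p under 0.05 alone).

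**Figure D2:**
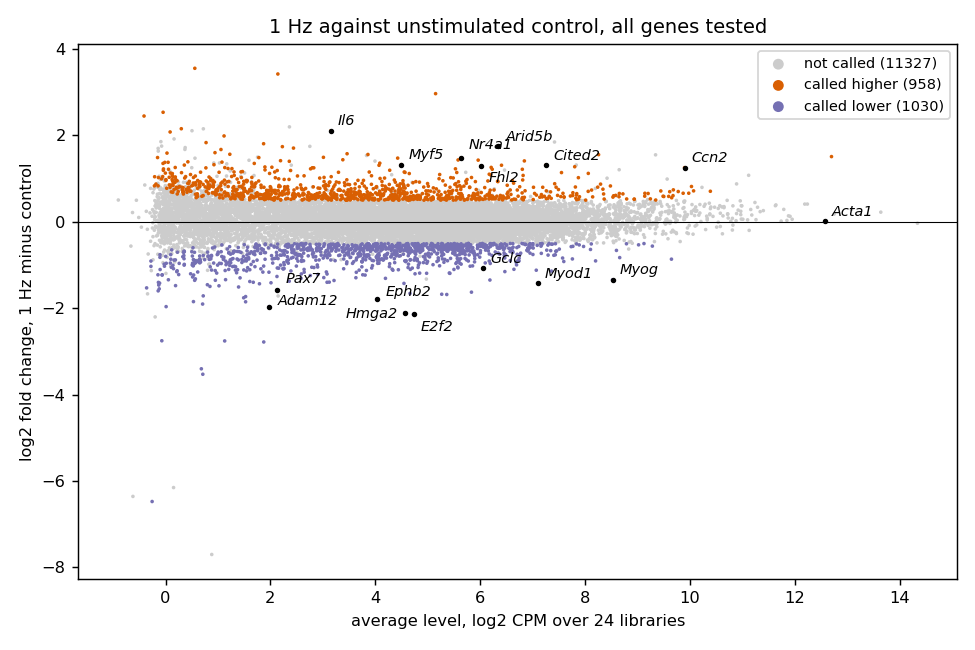
Log2(fold change) at 1 Hz over control (vertical axis) against the average log2 CPM over 24 libraries (horizontal axis) for the 13315 tested genes, with the 958 called higher in orange, the 1030 called lower in purple and 16 named genes in black. Most called genes lie within 1 log2 unit of the line at 0, and the unlabelled points beyond 4 in size are genes of low level.

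The genes of largest change are given first, among called genes with a mean log2 CPM of at least 2 whose stimulated libraries all lay outside the range of the controls. Predicted genes, known only by a provisional symbol or an identifier, were left out of this ranking and of that by p. Of these, E2f2 and Hmga2 fell furthest. Hmga2, a chromatin protein of proliferating and embryonic cells on chromosome 10, bases 120197173 to 120313095 (GRCm39), ranged from 36.8 to 49.7 CPM (median 40.4) in the controls and from 6.91 to 12.9 CPM (median 10.2) at 1 Hz. It fell 4.302-fold (log2(fold change) -2.10, standard error 0.17, adjusted p 1.2e-09), and the highest 1 Hz library lay well under the lowest control. E2f2, an E2F factor of the cell cycle (chromosome 4, bases 135899585 to 135923368), lay between 32.95 and 60.7 CPM (median 43.4) in the controls and between 4.51 and 18.9 CPM (median 9.47) at 1 Hz (log2(fold change) -2.14, standard error 0.24, adjusted p 8.6e-07). Its highest stimulated library was replicate 5, at 18.9 CPM, still below every control.

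Ephb2, a receptor for ephrin-B ligands (chromosome 4, bases 136374850 to 136563351), ranged from 23.95 to 29.1 CPM (median 27.2) in the controls and from 6.16 to 10.2 CPM (median 7.54) at 1 Hz (log2(fold change) -1.79, standard error 0.13, adjusted p 3.3e-10). Hephl1, a copper-dependent ferroxidase (chromosome 9, bases 14963137 to 15023415), lay between 59.1 and 82.7 CPM (median 66.8) in the controls and between 16.5 and 24.04 CPM (median 22.2) at 1 Hz (log2(fold change) -1.68, standard error 0.12, adjusted p 1.3e-10). The ranges of the groups were far apart for both. The retinoic acid receptor Rara fell from a median of 41.3 to 13.8 CPM (log2(fold change) -1.66, adjusted p 3.9e-08). The membrane-anchored semaphorin Sema7a fell from a median of 66.6 to 18.4 CPM (log2(fold change) -1.68, adjusted p 4.1e-06), Tiam1, an exchange factor for the GTPase Rac, from a median of 33.9 to 13.1 CPM (log2(fold change) -1.43, adjusted p 1.1e-06), and Kctd11, a substrate adaptor for a cullin ubiquitin ligase, from a median of 89.1 to 29.7 CPM (log2(fold change) -1.63, adjusted p 8.0e-07). All of these had 6 of 6 stimulated libraries below the lowest control.

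By the smallest p, and with predicted genes left out, the lower genes were led by Myog, Myod1, Hephl1, Ahdc1 and Cdc42ep2. Ahdc1, an AT-hook DNA-binding protein, ranged from 92.99 to 111 CPM (median 104) in the controls and from 32.2 to 51.3 CPM (median 40.9) at 1 Hz (log2(fold change) -1.35, standard error 0.09, adjusted p 2.8e-11). Cdc42ep2, an effector of the GTPase Cdc42 that shapes actin, lay between 120.03 and 135 CPM (median 130.1) in the controls and between 47.995 and 63.8 CPM (median 58.3) at 1 Hz (log2(fold change) -1.15, standard error 0.08, adjusted p 9.6e-11). The spread within each group was small for both, and the ranges did not meet.

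Among the higher genes, taken with the same floor on the level, predicted genes left out and all 6 libraries above the controls, Il6 had the largest change. Il6, the cytokine that contracting muscle is known to release (chromosome 5, bases 30218112 to 30224979), ranged from 1.42 to 3.67 CPM (median 2.999) in the controls and from 7.87 to 17.5 CPM (median 11.7) at 1 Hz. This was a 4.302-fold rise (log2(fold change) 2.10, standard error 0.30, adjusted p 1.1e-05) at a low level, with replicate 5 the lowest stimulated library and still above every control. Arid5b, a chromatin regulator that works with a histone demethylase (chromosome 10, bases 67928350 to 68115531), lay between 18.04 and 49.6 CPM (median 33.2) in the controls and between 85.05 and 134 CPM (median 121) at 1 Hz (log2(fold change) 1.75, standard error 0.29, adjusted p 0.00011). Dact1, an antagonist of Dishevelled in Wnt signalling, rose from a median of 1.95 to 6.596 CPM (log2(fold change) 1.74, adjusted p 8.0e-07), and Ypel4, a small zinc-binding protein, from a median of 2.33 to 7.67 CPM (log2(fold change) 1.71, adjusted p 5.9e-05). Both are low in these cells, and in both replicate 5 was the lowest stimulated library.

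Creb5, a CREB-family factor, ranged from 21.2 to 25.4 CPM (median 24.2) in the controls and from 45.1 to 88.5 CPM (median 65.9) at 1 Hz (log2(fold change) 1.43, standard error 0.13, adjusted p 1.7e-08). Cited2, a p300/CBP-binding cofactor induced by hypoxia and cytokines (chromosome 10, bases 17598966 to 17601792), lay between 70.1 and 99.6 CPM (median 84.4) in the controls and between 184 and 236 CPM (median 212) at 1 Hz (log2(fold change) 1.31, standard error 0.10, adjusted p 5.1e-10). Here replicate 5 was no exception, at 212 CPM. Klf7, a Kruppel-like factor, ranged from 31.3 to 40.01 CPM (median 34.8) in the controls and from 62.9 to 85.6 CPM (median 68.7) at 1 Hz (log2(fold change) 1.03, standard error 0.08, adjusted p 4.0e-10), and its ranges did not meet. Crebrf, a regulator of the CREB3 factors and of glucocorticoid receptor turnover, rose from a median of 27.4 to 63.8 CPM (log2(fold change) 1.23, adjusted p 8.4e-09). The small GTPase Rhov (log2(fold change) 1.49, adjusted p 0.00077), the deubiquitinase Otud1 (log2(fold change) 1.41, adjusted p 0.00013), the putative magnesium transporter Nipal1 (log2(fold change) 1.42, adjusted p 0.00077) and the phosphatase Dusp2 (log2(fold change) 1.44, adjusted p 0.00087) were also above every control in all 6 libraries.

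**Figure D3:**
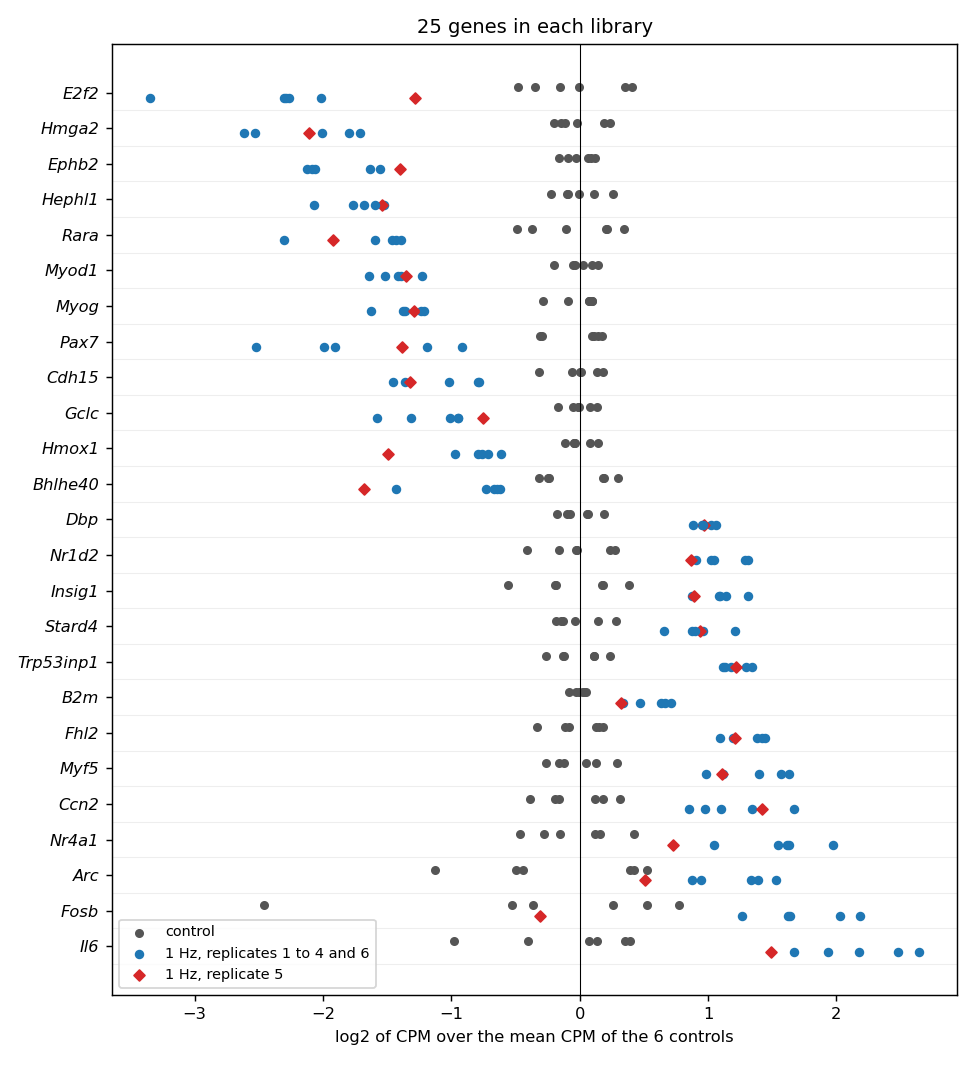
Log2 of CPM over the mean CPM of the 6 controls (horizontal axis) for 25 named genes (rows), 1 point a library: controls in gray, 1 Hz replicate 5 as a red diamond and the other 5 stimulated libraries in blue. Replicate 5 lies with the other stimulated libraries for Myod1, Myog, Dbp and Trp53inp1, and among the controls for Arc and Fosb.

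The regulators of the muscle lineage moved in both directions. Of 18 tested myogenic factors, 3 rose (16.7%) and 7 fell (38.9%), with a median log2(fold change) of -0.04 against 0.04 over all genes. Without replicates 4 and 6 the counts were 3 and 7. Myog, the factor that drives terminal differentiation (chromosome 1, bases 134217707 to 134220287), ranged from 459 to 599 CPM (median 590.02) in the controls and from 182 to 242 CPM (median 224) at 1 Hz. It fell 2.54-fold (log2(fold change) -1.34, standard error 0.07, adjusted p 1.2e-12), and the 6 stimulated libraries formed a band far below the 6 controls. Myod1, the factor of myoblast commitment (chromosome 7, bases 46025870 to 46028526), lay between 186 and 236 CPM (median 214) in the controls and between 68.5 and 91.4 CPM (median 80.8) at 1 Hz (log2(fold change) -1.42, standard error 0.09, adjusted p 2.5e-11). Pax7, the stem cell factor (chromosome 4, bases 139464373 to 139560839), ranged from 4.88 to 6.83 CPM (median 6.51) in the controls and from 1.06 to 3.21 CPM (median 1.97) at 1 Hz (log2(fold change) -1.58, standard error 0.18, adjusted p 4.0e-07), at a low level. The homeobox factor Six4 (log2(fold change) -0.54, adjusted p 0.00050), which acts with the Eya coactivators on muscle genes, fell as well. These 4 were below all controls in 6 of 6 libraries, replicate 5 among them.

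Myf5 went the other way. Myf5, the earliest of the myogenic factors in the embryo (chromosome 10, bases 107318769 to 107321995), lay between 10.5 and 15.4 CPM (median 12.3) in the controls and between 24.9 and 39.1 CPM (median 30.2) at 1 Hz (log2(fold change) 1.32, standard error 0.13, adjusted p 2.7e-08), and every stimulated library lay above every control. Eya1, a coactivator of Six4, also rose (log2(fold change) 0.91, adjusted p 2.4e-06), with its highest value, 14.4 CPM, in replicate 5.

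Of 13 tested genes for myoblast adhesion and fusion, 2 fell and none passed as higher in edgeR (1 rose and 3 fell without replicates 4 and 6). Both that fell are cadherins, which hold myoblasts together. Cdh15, M-cadherin, ranged from 115 to 162 CPM (median 144) in the controls and from 52.1 to 82.996 CPM (median 63.8) at 1 Hz (log2(fold change) -1.10, standard error 0.11, adjusted p 3.6e-08). Cdh2, N-cadherin, lay between 136 and 153 CPM (median 147) in the controls and between 68.5 and 88.2 CPM (median 82.6) at 1 Hz (log2(fold change) -0.84, standard error 0.07, adjusted p 3.5e-09). In both, the ranges of the groups stayed apart. Mymk, the membrane protein that fuses myoblasts, ranged from 392 to 499 CPM (median 455) in the controls and from 323 to 468 CPM (median 408) at 1 Hz and did not pass (log2(fold change) -0.16, adjusted p 0.14). Without replicates 4 and 6 its adjusted p was 0.015, and without 1 Hz replicate 4 alone 0.033.

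Few genes of the contractile apparatus itself passed. Of 21 thick filament genes 1 fell and of 18 thin filament genes 1 rose, shares of 4.76% and 5.56% that lie under the background. Of 25 genes of excitation-contraction coupling 1 rose and 1 fell. Without replicate 4 alone 3 thick filament genes fell, and 1 rose and 3 fell among those of excitation-contraction coupling. Without replicates 4 and 6, 2 thick filament genes fell, 1 thin filament gene rose and 1 fell, and 4 genes of excitation-contraction coupling fell. The medians of the 3 groups were then -0.147, -0.139 and -0.153, against -0.01 over all genes. The embryonic myosin Myh3 ranged from 211 to 312 CPM (median 269.9) in the controls and from 199.5 to 392 CPM (median 245) at 1 Hz (log2(fold change) 0.06, adjusted p 0.78), and the perinatal myosin Myh8 lay between 229.9 and 381 CPM (median 313) in the controls and between 276 and 447 CPM (median 330.4) at 1 Hz (log2(fold change) 0.12, adjusted p 0.42). The ranges of both overlapped. Acta1, skeletal alpha-actin, whose reads can be shared with its close relative Actc1, ranged from 5328 to 7043 CPM (median 5864) in the controls and from 4338 to 7806 CPM (median 6289.6) at 1 Hz (log2(fold change) 0.02, adjusted p 0.91). Ckm, Tnnt3, Neb, Ttn and Des gave log2(fold changes) of 0.03, 0.04, -0.08, 0.04 and 0.05, with adjusted p of 0.90, 0.81, 0.81, 0.85 and 0.69. On log2(TPM + 1) the value for Ttn turned to -0.36 (limma, adjusted p 0.048). These transcripts of muscle fibers were abundant in all 12 libraries, as the label of the cells says. The mean of the thin filament genes ran from -0.414 in 1 Hz replicate 3 to 0.57 in replicate 4, so that the stimulated libraries differed from each other on both sides of the controls (-0.137 to 0.233).

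The exceptions were regulators around the filaments. Mybph, a myosin-binding protein related to MyBP-C, ranged from 904 to 1099 CPM (median 1023) in the controls and from 587 to 839 CPM (median 766) at 1 Hz (log2(fold change) -0.46, standard error 0.08, adjusted p 0.00013). Lmod2, leiomodin 2, which nucleates and lengthens thin filaments, lay between 92.99 and 122 CPM (median 100.1) in the controls and between 119 and 203 CPM (median 134) at 1 Hz (log2(fold change) 0.49, standard error 0.12, adjusted p 0.0029), with 5 of 6 stimulated libraries above the controls. Of 24 Z-disc and stretch proteins 5 rose (20.8%, near the background) and 1 fell (4.17%), and without replicate 4 or replicate 6 alone 3 rose. The LIM proteins Fhl2 and Fhl3 rose, and Synpo2l, an actin-binding protein of the Z-disc, fell (log2(fold change) -0.77, adjusted p 3.7e-08). Fhl3 ranged from 17.4 to 22.9 CPM (median 18.9) in the controls and from 21.3 to 32.8 CPM (median 27.3) at 1 Hz (log2(fold change) 0.48, adjusted p 0.0013).

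Fhl2, a LIM-only protein that shuttles between the Z-disc and the nucleus and is a known target of SRF, ranged from 28.1 to 40.2 CPM (median 35.96) in the controls and from 75.6 to 96.1 CPM (median 86.8) at 1 Hz (log2(fold change) 1.29, standard error 0.09, adjusted p 9.6e-11). All 6 stimulated libraries lay far above the controls, and replicate 5 stood among them at 81.6 CPM. Its promoter is shown because it holds a CArG box, the motif that SRF binds, between 31 and 22 bases before the RefSeq start. The window runs from 250 bases before to 50 after the start (GRCm38.p6, chr1:43163912-43164211, minus strand), with the match in capitals.
Fhl2: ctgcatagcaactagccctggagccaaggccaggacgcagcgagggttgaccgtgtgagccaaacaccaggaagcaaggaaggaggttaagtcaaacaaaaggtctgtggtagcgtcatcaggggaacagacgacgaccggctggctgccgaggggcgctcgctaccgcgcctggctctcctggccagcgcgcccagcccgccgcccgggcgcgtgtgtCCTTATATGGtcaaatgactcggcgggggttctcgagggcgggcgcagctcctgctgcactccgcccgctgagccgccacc
Both strands of RefSeq windows of 300 bases were searched for each motif named here. Among 9882 tested genes with a window, 1.65% held a CArG box, as did 2.51% of the genes called higher and 1.5% of those called lower. A match is a run of letters, not a site shown to be bound.

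At the membrane, 1 of 4 acetylcholine receptor subunits fell. Chrnd, the delta subunit, ranged from 243 to 338 CPM (median 285) in the controls and from 170.03 to 252 CPM (median 230.1) at 1 Hz (log2(fold change) -0.39, standard error 0.08, adjusted p 0.00078), with 5 of 6 stimulated libraries below the controls. Chrng lay between 335 and 399 CPM (median 379.6) in the controls and between 251 and 418 CPM (median 338) at 1 Hz (log2(fold change) -0.13, adjusted p 0.27), and neither it nor Chrna1 (log2(fold change) -0.09, adjusted p 0.26) and Chrnb1 (log2(fold change) -0.17, adjusted p 0.090) passed. Chrng and Chrnb1 passed without replicates 4 and 6 (adjusted p 0.042 and 0.019), and Chrnb1 also without 1 Hz replicate 4 alone (0.015) and without control replicate 3 alone (0.045). With the length covariate and on log2(TPM + 1) (limma) all 4 subunits passed as lower, Chrna1 with an adjusted p of 0.037 and 0.012. Of 16 genes of the neuromuscular synapse 3 rose and 2 fell, and among those that fell was Dok7, the adaptor that activates the kinase MuSK, from a median of 19.8 to 13.9 CPM (log2(fold change) -0.50, adjusted p 4.9e-05).

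Of 13 genes of sarcolemma excitability 1 rose and 3 fell, and 2 and 1 without replicates 4 and 6. Kcnj2, the inward rectifier that sets the resting potential, ranged from 2.04 to 3.67 CPM (median 2.901) in the controls and from 4.11 to 5.85 CPM (median 5.43) at 1 Hz (log2(fold change) 0.84, standard error 0.18, adjusted p 0.00067), all 6 stimulated libraries lying above the controls.

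Immediate early genes are switched on by calcium and MAP kinase signals without new protein synthesis, and many code for transcription factors. They were higher as a group but not in every library. Of 27 tested, 11 rose (40.7%) and 1 fell (3.7%), with a median log2(fold change) of 0.49. The mean of the group stood 0.767, 0.843, 0.881, 0.941, -0.179 and 0.304 above the mean of the controls (log2) in 1 Hz replicates 1 to 6, against -0.59 to 0.328 among the controls. So 4 of the 6 libraries lay clear of the controls, and replicates 5 and 6 lay within their range. Without replicate 5, 14 rose, without replicate 4 alone 7, and without replicates 4 and 6, 8 rose and 2 fell.

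Nr4a1, an orphan nuclear receptor induced by contraction (chromosome 15, bases 101151980 to 101172681), ranged from 17.7 to 32.7 CPM (median 24.2) in the controls and from 40.4 to 95.6 CPM (median 72.9) at 1 Hz (log2(fold change) 1.48, standard error 0.24, adjusted p 6.5e-05). The lowest stimulated library was replicate 5, and all 6 lay above the controls. Maff, a small Maf factor, lay between 134 and 160.2 CPM (median 151) in the controls and between 173 and 239 CPM (median 214) at 1 Hz (log2(fold change) 0.49, standard error 0.08, adjusted p 2.6e-05). The member that fell was Fosl1, an AP-1 subunit, from a median of 182 to 131 CPM (log2(fold change) -0.54, adjusted p 0.00016), with all 6 libraries below the controls. Arc, best known as an activity-regulated gene of neurons, rose from a median of 114 to 248 CPM (log2(fold change) 1.14, adjusted p 0.0019), Fosb, an AP-1 subunit, from a median of 5.803 to 18.2 CPM (log2(fold change) 1.56, adjusted p 0.014), and Egr3, a zinc finger factor, from a median of 32.4 to 51.7 CPM (log2(fold change) 0.61, adjusted p 0.00070). With the length covariate the adjusted p of Fosb was 0.056. For Arc and Fosb replicate 5 was the lowest of the stimulated libraries, at 158 and 4.74 CPM, and lay inside the range of the controls, while the other 5 lay above it.

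Btg2, an antiproliferative gene that is also a p53 target, ranged from 24.1 to 57.6 CPM (median 44.02) in the controls and from 32.9 to 148 CPM (median 109) at 1 Hz (log2(fold change) 1.22, standard error 0.36, adjusted p 0.012), and here too replicate 5, at 32.9 CPM, fell inside the range of the controls. With the length covariate its adjusted p was 0.086. Its promoter is shown because it holds the full cAMP response element TGACGTCA, which CREB binds, from 166 to 159 bases before the start (GRCm38.p6, chr1:134079106-134079405, minus strand, match in capitals).
Btg2: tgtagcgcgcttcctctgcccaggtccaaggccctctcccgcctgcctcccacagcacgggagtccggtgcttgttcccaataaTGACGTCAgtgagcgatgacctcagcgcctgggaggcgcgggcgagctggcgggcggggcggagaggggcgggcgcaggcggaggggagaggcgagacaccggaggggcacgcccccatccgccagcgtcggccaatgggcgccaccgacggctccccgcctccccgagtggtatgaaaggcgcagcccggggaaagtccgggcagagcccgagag
This element was found in 3.56% of all tested genes with a window, in 4.42% of the higher and in 3.26% of the lower genes. Among the 20 immediate early genes with a window, Btg2 and Maff held it.

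Inhibitors that MAP kinase signalling induces against itself showed the same split between libraries. Of 19 tested, 7 rose (36.8%) and none passed as lower in edgeR (6 and 1 without replicates 4 and 6), and the mean of the group was 0.447 to 0.509 above the controls in replicates 1 to 4, 0.093 in replicate 6 and -0.059 in replicate 5. Dusp8, a phosphatase of the stress-activated kinases, ranged from 42.99 to 48.5 CPM (median 47.5) in the controls and from 63.6 to 77.8 CPM (median 71.2) at 1 Hz (log2(fold change) 0.60, standard error 0.08, adjusted p 1.8e-06), with replicate 5 the lowest but above every control. Spry1, an inhibitor of receptor tyrosine kinase signalling, lay between 2.54 and 3.45 CPM (median 2.704) in the controls and between 4.39 and 6.47 CPM (median 5.87) at 1 Hz (log2(fold change) 0.98, standard error 0.13, adjusted p 3.1e-06).

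Of 33 secreted factors of muscle 13 rose (39.4%) and 4 fell (12.1%), with a median of 0.29. Without replicate 5, 17 rose, without replicates 4 and 6, 10 rose and 2 fell, and the group mean of that library, -0.183, was the lowest of the 6 (0.314 to 0.482 in the others). Ptx3, a soluble pattern recognition protein, ranged from 0.929 to 1.78 CPM (median 1.38) in the controls and from 2.59 to 6.75 CPM (median 4.78) at 1 Hz (log2(fold change) 1.81, standard error 0.26, adjusted p 9.1e-06). Bdnf, a neurotrophin, lay between 10.2 and 33.3 CPM (median 23.2) in the controls and between 31.7 and 56.2 CPM (median 50.5) at 1 Hz (log2(fold change) 1.09, standard error 0.26, adjusted p 0.0021), its 5 other stimulated libraries lying at 47.9 to 56.2 CPM and replicate 5 at 31.7. Il15, a cytokine made by muscle, rose from a median of 6.31 to 10.6 CPM (log2(fold change) 0.84, adjusted p 0.0015). Angptl4, an inhibitor of lipoprotein lipase, fell from a median of 177 to 104 CPM (log2(fold change) -0.76, adjusted p 0.0030), and Gdf11, a relative of myostatin, from a median of 16.7 to 11.7 CPM (log2(fold change) -0.51, adjusted p 0.0025). In both of these 5 of 6 libraries lay below the controls.

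Targets of YAP and TEAD, the factors that respond to tension and cell shape, gave 7 higher (35%) and 2 lower (10%) of 20. The mean of the group was 0.119 in replicate 4 and 0.065 in replicate 6, inside the control range of -0.211 to 0.208. It was 0.286 to 0.394 in the other stimulated libraries. Ccn2, connective tissue growth factor, ranged from 447 to 727 CPM (median 580.2) in the controls and from 1058 to 1859 CPM (median 1369) at 1 Hz (log2(fold change) 1.25, standard error 0.17, adjusted p 4.9e-06), and replicate 5, at 1569 CPM, was well above the controls. Ccn1, a related matrix-bound protein, lay between 41.9 and 247 CPM (median 132) in the controls and between 141 and 573 CPM (median 471) at 1 Hz (log2(fold change) 1.55, standard error 0.49, adjusted p 0.018), and its ranges overlapped. With the length covariate its adjusted p was 0.091. Nuak2, a kinase related to AMPK, ranged from 19.98 to 25.5 CPM (median 23.7) in the controls and from 32.2 to 36.3 CPM (median 35.2) at 1 Hz (log2(fold change) 0.57, standard error 0.08, adjusted p 3.8e-06). Of 13 genes of the calcineurin and NFAT pathway 3 rose and 2 fell, and of 16 genes of the IGF axis 3 rose and 2 fell. Without replicate 5, 6 genes of the IGF axis rose (37.5%) and 1 fell, and without replicates 4 and 6, 2 of the calcineurin and NFAT genes rose and 0 fell by edgeR.

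**Figure D4:**
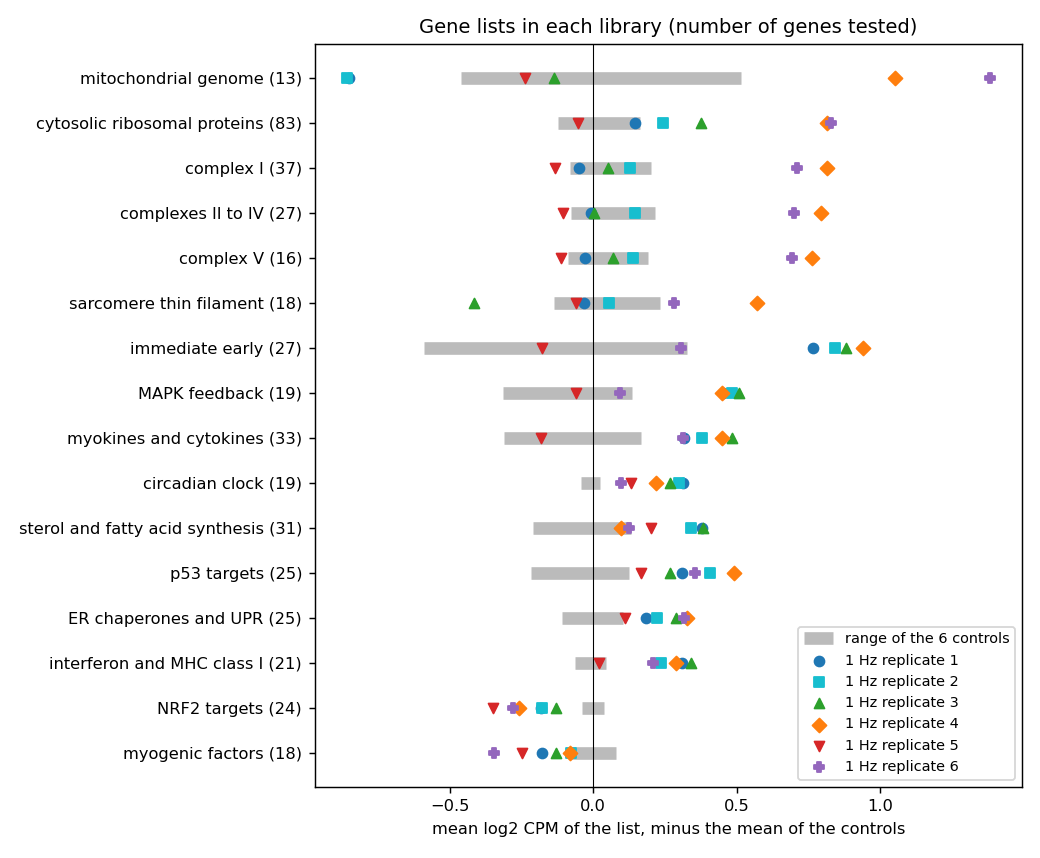
Mean log2 CPM of the tested members of a gene group minus the mean of the controls (horizontal axis) for 16 groups (rows, number tested in brackets), with the range of the 6 controls as a gray bar and each 1 Hz library as a colored mark. Replicate 5 lies within the control range for immediate early genes, MAP kinase feedback and secreted factors but outside it for NRF2 targets and clock genes, and replicates 4 and 6 are the highest for the respiratory chain, ribosomal proteins and the mitochondrial genome.

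Clock genes differed between the groups in a more even way across libraries. The core clock is a feedback loop in which Clock and Arntl (Bmal1) drive output genes such as Dbp and the repressors Nr1d1 and Nr1d2. Of 19 tested 9 rose (47.4%) and 3 fell (15.8%), and 10 rose and 3 fell without replicates 4 and 6. The mean of the group was 0.314, 0.298, 0.266, 0.218, 0.13 and 0.096 above the controls in replicates 1 to 6, all outside the control range of -0.044 to 0.022. The time of day of lysis is not given in the sources used here.

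Dbp, the output factor (chromosome 7, bases 45354512 to 45359627), ranged from 29.2 to 37.8 CPM (median 32.9) in the controls and from 60.9 to 69.04 CPM (median 64.6) at 1 Hz (log2(fold change) 0.98, standard error 0.09, adjusted p 1.8e-08), so that the stimulated libraries formed a narrow band, 1.97-fold above the controls by the fit. Nr1d2 (Rev-erb beta) lay between 34.9 and 55.9 CPM (median 45.5) in the controls and between 84.5 and 115 CPM (median 94.8) at 1 Hz (log2(fold change) 1.08, standard error 0.12, adjusted p 1.7e-07). Nr1d1 (Rev-erb alpha) rose from a median of 30.9 to 91.7 CPM (log2(fold change) 1.43, adjusted p 0.0039), with replicate 5 inside the range of the controls at 27.9 CPM. Rora, the activator that competes with the Rev-erb repressors, rose from a median of 5.83 to 10.7 CPM (log2(fold change) 0.91, adjusted p 3.5e-07). On the other arm, Clock fell from a median of 118 to 78.7 CPM (log2(fold change) -0.62, adjusted p 0.0017) and Arntl from a median of 16.7 to 12.9 CPM (log2(fold change) -0.41, adjusted p 0.0049). Bhlhe40, a repressor of the clock that also responds to hypoxia, ranged from 317 to 486 CPM (median 391) in the controls and from 123 to 256 CPM (median 243) at 1 Hz (log2(fold change) -0.90, standard error 0.17, adjusted p 0.00022), its lowest value being that of replicate 5.

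Genes of sterol and fatty acid synthesis, which SREBP factors switch on when membrane sterol is low, gave 15 higher (48.4%) and 2 lower (6.45%) of 31, and 18 and 1 without replicates 4 and 6. The mean of the group was 0.096 in replicate 4 and 0.123 in replicate 6, inside the control range of -0.209 to 0.131. It was 0.202 to 0.383 in the other stimulated libraries. Insig1, which retains SREBP in the endoplasmic reticulum (chromosome 5, bases 28276315 to 28283668), ranged from 47.5 to 91.6 CPM (median 70.4) in the controls and from 129 to 174 CPM (median 149) at 1 Hz (log2(fold change) 1.07, standard error 0.12, adjusted p 1.5e-07). Stard4, a sterol carrier, lay between 35.1 and 48.6 CPM (median 37.7) in the controls and between 62.8 and 92.3 CPM (median 75.3) at 1 Hz (log2(fold change) 0.93, standard error 0.09, adjusted p 4.7e-08). Msmo1, a sterol demethylase, rose from a median of 91.6 to 166 CPM (log2(fold change) 0.80, adjusted p 2.4e-06). All 6 stimulated libraries lay above the controls in each. Dhcr7, the last reductase of cholesterol synthesis, fell by little (log2(fold change) -0.25, adjusted p 0.0059).

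Hmgcs1, the synthase at the entry to the mevalonate pathway, ranged from 152 to 204 CPM (median 168) in the controls and from 249 to 286 CPM (median 263) at 1 Hz (log2(fold change) 0.61, standard error 0.08, adjusted p 3.8e-06). Its promoter is shown because it holds the sterol regulatory element TCACNCCAC, from 137 to 129 bases before the start (GRCm38.p6, chr13:119690101-119690400, plus strand, match in capitals).
Hmgcs1: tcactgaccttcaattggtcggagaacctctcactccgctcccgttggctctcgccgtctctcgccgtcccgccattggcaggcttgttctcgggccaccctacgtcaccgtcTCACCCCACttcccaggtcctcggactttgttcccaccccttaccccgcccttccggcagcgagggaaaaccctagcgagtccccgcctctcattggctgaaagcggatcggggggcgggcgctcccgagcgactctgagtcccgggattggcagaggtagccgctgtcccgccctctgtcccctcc
Of 20 genes of the group with a window, Hmgcs1 was the only 1 with this match, and the share was 1.33% over all tested genes with a window, 1.47% of the higher and 1.38% of the lower genes.

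Antioxidant genes controlled by NRF2 passed as lower more often than as higher. Of 24 tested 11 fell (45.8%) and 5 rose (20.8%), with a median of -0.15, and without replicates 4 and 6, 12 fell and 2 rose. Without replicate 4 or 6 alone, 2 rose as well. The mean of the group was -0.349 to -0.128 against the controls in the 6 stimulated libraries, all outside the control range of -0.038 to 0.036, and replicate 5 was the lowest. Gclc, the catalytic subunit of the enzyme that starts glutathione synthesis (chromosome 9, bases 77661797 to 77701770), ranged from 85.5 to 105 CPM (median 95.3) in the controls and from 32.1 to 56.95 CPM (median 48.7) at 1 Hz (log2(fold change) -1.07, standard error 0.13, adjusted p 5.8e-07). G6pdx, glucose-6-phosphate dehydrogenase, which feeds NADPH, lay between 33.2 and 46.9 CPM (median 39.5) in the controls and between 16.7 and 22.7 CPM (median 19.6) at 1 Hz (log2(fold change) -0.9997, standard error 0.11, adjusted p 3.3e-07). Hmox1, heme oxygenase 1, fell from a median of 1027 to 616 CPM (log2(fold change) -0.86, adjusted p 2.4e-06), and Slc7a11, the cystine importer, from a median of 34.1 to 17.9 CPM (log2(fold change) -0.98, adjusted p 0.0016). In each of these the highest stimulated library was below the lowest control. Against this direction, Tkt, transketolase (log2(fold change) 0.31, adjusted p 0.012), and Gstm1, a glutathione transferase of a family of near copies (log2(fold change) 0.30, adjusted p 0.017), rose by less.

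Gclm, the modifier subunit that pairs with Gclc, ranged from 124 to 150.5 CPM (median 134) in the controls and from 77.9 to 105 CPM (median 90.1) at 1 Hz (log2(fold change) -0.57, standard error 0.08, adjusted p 9.5e-06). Its promoter is shown because it holds the antioxidant response core TGACNNNGC, read on the reverse strand, from 134 to 126 bases before the start (GRCm38.p6, chr3:122245307-122245606, plus strand, match in capitals).
Gclm: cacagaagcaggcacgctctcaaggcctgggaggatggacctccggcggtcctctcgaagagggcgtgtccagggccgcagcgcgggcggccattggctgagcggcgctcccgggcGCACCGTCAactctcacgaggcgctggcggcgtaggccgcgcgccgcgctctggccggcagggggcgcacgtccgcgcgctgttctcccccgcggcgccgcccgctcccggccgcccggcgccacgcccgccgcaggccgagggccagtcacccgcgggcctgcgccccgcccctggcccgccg
The core was found in 8 of 19 genes of the group with a window (42.1%), among them G6pdx, and in 17% of all tested genes with one, 18.6% of the higher and 13.2% of the lower genes.

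Genes that respond to p53 were mostly higher. Of 25 tested 13 rose (52%) and 1 fell (4%), and 12 and 2 without replicates 4 and 6. Trp53inp1, which acts in autophagy and apoptosis (chromosome 4, bases 11156412 to 11175230), ranged from 54.4 to 76.98 CPM (median 65.2) in the controls and from 141 to 165 CPM (median 150.2) at 1 Hz (log2(fold change) 1.22, standard error 0.11, adjusted p 9.7e-09), with a wide gap between the groups. Sesn1, a stress-induced inhibitor of mTORC1, lay between 18.3 and 24.3 CPM (median 21.2) in the controls and between 26.6 and 38.1 CPM (median 32.2) at 1 Hz (log2(fold change) 0.61, standard error 0.09, adjusted p 7.9e-06). The member that fell was Trp53 itself, from a median of 54.3 to 43.5 CPM (log2(fold change) -0.33, adjusted p 0.0027).

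Of 25 chaperones and folding factors of the endoplasmic reticulum 15 rose (60%), with a median of 0.33, and none passed as lower in edgeR. There were 12 that rose without replicates 4 and 6. Xbp1, a factor of the unfolded protein response, ranged from 162 to 196 CPM (median 181) in the controls and from 249 to 273 CPM (median 257) at 1 Hz (log2(fold change) 0.51, standard error 0.06, adjusted p 3.4e-07), and its ranges did not meet. Edem1, which directs misfolded glycoproteins to degradation, lay between 42.8 and 52.9 CPM (median 46.6) in the controls and between 59.2 and 69.9 CPM (median 65.7) at 1 Hz (log2(fold change) 0.46, standard error 0.07, adjusted p 7.5e-06).

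Of 33 genes of autophagy and lysosome 15 rose (45.5%) and 2 fell (6.06%), and 12 and 2 without replicates 4 and 6. On log2(TPM + 1) the median of the group was -0.04, above the -0.14 of all genes. The lysosomal enzyme Ctsa (log2(fold change) 0.33, adjusted p 0.00013) rose in all 6 libraries. Those that fell were Sqstm1, the autophagy receptor p62 and also an NRF2 target (log2(fold change) -0.27, adjusted p 0.0056), and Atg3, a conjugating enzyme of autophagosome growth (log2(fold change) -0.46, adjusted p 0.00016).

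Of 21 tested genes of the interferon response and antigen presentation 11 rose (52.4%) and none passed as lower in edgeR, with 9 higher without replicates 4 and 6. The mean of the group was 0.209 to 0.339 in 5 of the stimulated libraries and 0.02, inside the control range of -0.062 to 0.043, in replicate 5. B2m, the light chain of MHC class I, ranged from 459 to 504 CPM (median 489) in the controls and from 608 to 794 CPM (median 713) at 1 Hz (log2(fold change) 0.53, standard error 0.08, adjusted p 1.4e-05), with replicate 5 the lowest of the stimulated libraries but above every control. H2-K1, a class I heavy chain whose reads can be shared with H2-D1, lay between 126 and 140.00 CPM (median 129.8) in the controls and between 141 and 198 CPM (median 180.2) at 1 Hz (log2(fold change) 0.42, standard error 0.07, adjusted p 8.5e-05), replicate 5 lying just above the highest control.

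Of 24 hypoxia targets 11 rose (45.8%) and 4 fell (16.7%), with a median of 0.17. Without replicates 4 and 6, 8 rose and 5 fell, with a median of 0.01, and on log2(TPM + 1) 0 of 23 rose and 6 fell (26.1%) by limma. Mxi1, a MYC antagonist (log2(fold change) 0.43, adjusted p 4.5e-05), and P4ha2, a collagen prolyl hydroxylase (log2(fold change) 0.41, adjusted p 3.5e-05), rose in all 6 libraries. Ddit4, an inhibitor of mTORC1 induced by stress, ranged from 102 to 148 CPM (median 129) in the controls and from 37.6 to 108 CPM (median 75.6) at 1 Hz (log2(fold change) -0.75, standard error 0.18, adjusted p 0.0029), with replicate 5 the lowest.

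**Figure D5:**
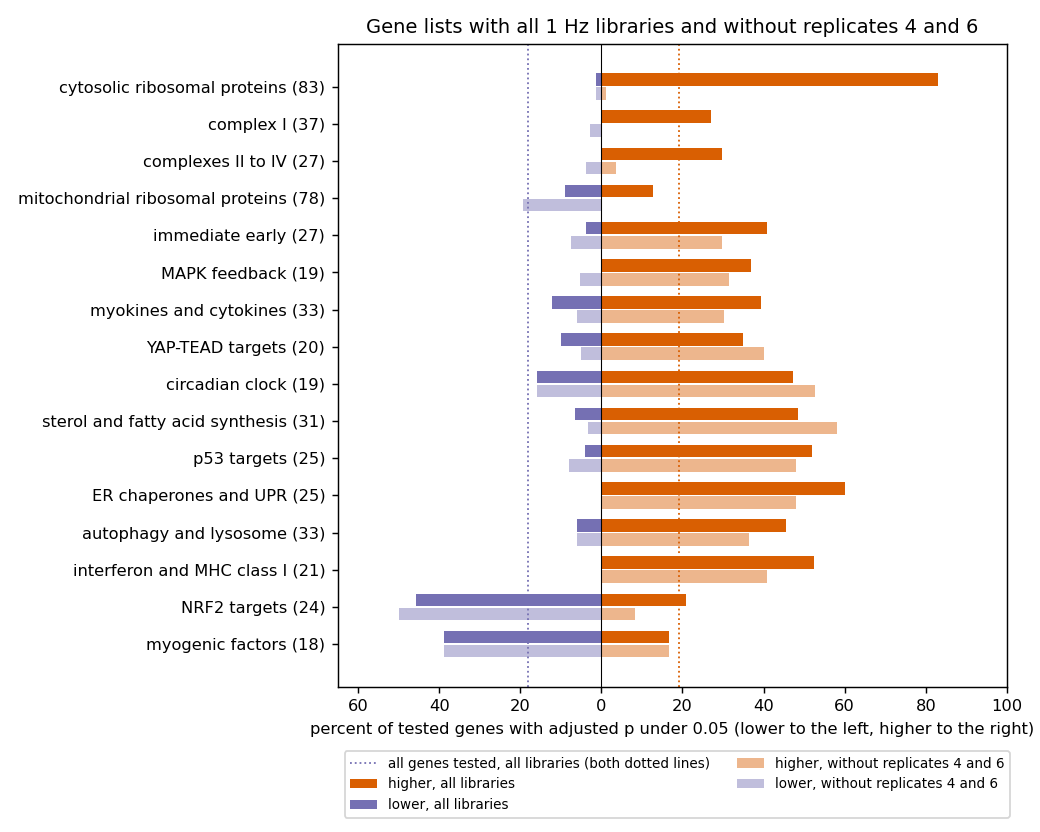
Percent of the tested members of 16 gene groups (rows, number tested in brackets) with an adjusted p under 0.05, higher to the right in orange and lower to the left in purple, in dark bars with all libraries and in pale bars without 1 Hz replicates 4 and 6. The dotted lines mark the background over all genes, 19.2% higher and 18.1% lower; the orange bars of ribosomal proteins and respiratory chain nearly vanish without the 2 libraries.

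Among ubiquitin ligases of muscle atrophy and the FoxO factors that induce them 6 of 18 rose and 3 fell. Foxo1 ranged from 27.9 to 36.3 CPM (median 30.8) in the controls and from 42.1 to 51.1 CPM (median 45.3) at 1 Hz (log2(fold change) 0.58, standard error 0.08, adjusted p 7.8e-06), and Foxo3 lay between 80.4 and 99.2 CPM (median 90.8) in the controls and between 119 and 145 CPM (median 131) at 1 Hz (log2(fold change) 0.57, standard error 0.08, adjusted p 4.2e-06). All stimulated libraries lay above the controls for both. Their known targets did not move as one. Fbxo32 (atrogin-1) rose from a median of 11.9 to 20.96 CPM (log2(fold change) 0.65, adjusted p 0.0018), whereas Trim63 (MuRF1) fell from a median of 77.5 to 54.9 CPM (log2(fold change) -0.44, adjusted p 0.0025). Fbxo40, a ligase for the IGF-1 signalling adaptor IRS1, ranged from 79.1 to 103 CPM (median 81.7) in the controls and from 37.1 to 64.7 CPM (median 54.6) at 1 Hz (log2(fold change) -0.67, standard error 0.09, adjusted p 5.5e-06), with no overlap between the groups.

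Pathways of cell fate were mixed within themselves. Of 14 Notch genes 5 rose (35.7%) and 2 fell. The ligand Jag1 ranged from 10.5 to 16.9 CPM (median 16.1) in the controls and from 23.2 to 35.4 CPM (median 25.7) at 1 Hz (log2(fold change) 0.88, standard error 0.13, adjusted p 1.1e-05), and Rbpj, the DNA-binding partner of the receptors, rose from a median of 133 to 202 CPM (log2(fold change) 0.54, adjusted p 1.5e-05). The coactivator Maml1 fell (log2(fold change) -0.38, adjusted p 0.0017), and so did the target Heyl, from a median of 2.196 to 0.844 CPM (log2(fold change) -1.50, adjusted p 0.0058), at the limit of detection.

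Of 24 Wnt genes 3 rose and 7 fell (29.2%), with a median of -0.29. The receptor Fzd2 ranged from 26.3 to 39.6 CPM (median 30.8) in the controls and from 14.3 to 19.1 CPM (median 16.8) at 1 Hz (log2(fold change) -0.92, standard error 0.09, adjusted p 4.7e-08), and the receptor Fzd4 lay between 9.33 and 14.6 CPM (median 12.5) in the controls and between 18.8 and 24.9 CPM (median 22.2) at 1 Hz (log2(fold change) 0.84, standard error 0.11, adjusted p 3.2e-06). These 2 receptors thus moved in opposite directions, each with all 6 libraries on its side. Tcf7, a factor of the pathway, fell (log2(fold change) -0.74, adjusted p 4.8e-05), and Axin2, its feedback inhibitor and a common readout, rose (log2(fold change) 0.68, adjusted p 0.00034).

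Of 24 genes of TGF-beta and activin signalling 4 rose and 3 fell (8 and 3 without replicates 4 and 6), and of 18 of BMP signalling 2 rose and 3 fell. Tgfbr2, the ligand-binding receptor of TGF-beta, ranged from 140.3 to 166 CPM (median 158) in the controls and from 81.2 to 105 CPM (median 96.8) at 1 Hz (log2(fold change) -0.72, standard error 0.08, adjusted p 9.5e-08), and Tgfbr3 (betaglycan), its coreceptor, rose from a median of 9.67 to 17.6 CPM (log2(fold change) 0.78, adjusted p 7.6e-05). Fstl3, which binds activin, rose (log2(fold change) 0.31, adjusted p 0.00020). On the BMP side the receptor Bmpr1b (log2(fold change) -1.002, adjusted p 0.00013) and the antagonist Grem1 (log2(fold change) -0.86, adjusted p 0.0026) fell.

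In the matrix and its receptors the clearest values were for proteases and an integrin. Of 20 matrix proteases and their relatives 6 rose (30%) and 5 fell (25%). Adamts1, which cleaves proteoglycans, ranged from 30.6 to 57.5 CPM (median 44.2) in the controls and from 83.7 to 134 CPM (median 115) at 1 Hz (log2(fold change) 1.31, standard error 0.17, adjusted p 2.6e-06), and its relative Adamts5 rose from a median of 15.02 to 25.2 CPM (log2(fold change) 0.77, adjusted p 8.3e-07). Adam12, a metalloprotease of regenerating muscle, lay between 3.66 and 11.2 CPM (median 6.38) in the controls and between 0.976 and 3.02 CPM (median 1.51) at 1 Hz (log2(fold change) -1.96, standard error 0.29, adjusted p 1.1e-05), and Mmp15, a membrane-bound metalloprotease, fell from a median of 32.5 to 21.9 CPM (log2(fold change) -0.60, adjusted p 4.5e-05). The libraries of the groups did not overlap for any of these 4.

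Of 28 integrin and focal adhesion genes 4 rose and 5 fell, 7 and 3 without replicates 4 and 6, 5 and 3 without replicate 4 alone, and 10 and 3 with the length covariate. Itgb3, the integrin subunit that binds vitronectin and fibrin, ranged from 24.1 to 33.4 CPM (median 26.6) in the controls and from 46.6 to 78.3 CPM (median 59.4) at 1 Hz (log2(fold change) 1.14, standard error 0.11, adjusted p 3.9e-08), with all 6 libraries above the controls. Tes, a LIM protein of focal adhesions, rose (log2(fold change) 0.48, adjusted p 9.1e-06), while the adhesion kinase Ptk2 (log2(fold change) -0.37, adjusted p 0.0016) and the adaptor Pxn (log2(fold change) -0.30, adjusted p 0.0028) fell. Of 34 collagens and laminins 3 rose and 1 fell (5 and 1 without replicate 6, 7 and 0 by edgeR without replicates 4 and 6), the member that fell being Col1a1 (log2(fold change) -0.70, adjusted p 0.021), whose adjusted p was 0.091 without replicates 4 and 6 and 0.069 without control replicate 2.

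In fuel use, few of 29 genes of glycolysis and lactate passed, 3 as higher (10.3%) and 2 as lower (6.9%), with 3 and 5 without replicate 4 and 5 and 1 without replicate 5. Of 25 of fatty acid oxidation and PPAR targets 6 rose (24%) and 4 fell (16%), near the background, with 3 and 5 without replicate 4 and 2 and 5 without replicates 4 and 6. Hk2, the hexokinase of muscle, ranged from 246 to 319 CPM (median 284) in the controls and from 176 to 235 CPM (median 216) at 1 Hz (log2(fold change) -0.43, standard error 0.08, adjusted p 0.00018), and Pfkp, a phosphofructokinase, rose from a median of 109.6 to 137 CPM (log2(fold change) 0.31, adjusted p 0.00077). Ucp3, a mitochondrial carrier, lay between 3.94 and 7.29 CPM (median 5.24) in the controls and between 1.46 and 3.67 CPM (median 2.21) at 1 Hz (log2(fold change) -1.17, standard error 0.19, adjusted p 2.9e-05), and the lipid droplet protein Plin2 fell from a median of 252 to 202 CPM (log2(fold change) -0.36, adjusted p 0.00035). Lpl, lipoprotein lipase, which Angptl4 inhibits, rose from a median of 45.3 to 70.7 CPM (log2(fold change) 0.75, adjusted p 5.4e-05), and Hadh, a dehydrogenase of beta-oxidation, rose by less (log2(fold change) 0.27, adjusted p 0.0021).

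Of 14 genes of mitochondrial biogenesis 1 rose and 4 fell (28.6%), 1 and 5 without replicates 4 and 6. Polrmt, the RNA polymerase of the mitochondrial genome, ranged from 33.5 to 39.5 CPM (median 36.1) in the controls and from 20.8 to 24.6 CPM (median 22.7) at 1 Hz (log2(fold change) -0.65, standard error 0.08, adjusted p 7.3e-07), and Twnk, its DNA helicase, fell from a median of 38.001 to 29.8 CPM (log2(fold change) -0.41, adjusted p 0.00045). The nuclear receptor Esrrg rose (log2(fold change) 0.60, adjusted p 0.0013). None of the 13 mitochondrial genome transcripts tested passed in edgeR, and their mean ran from -0.858 in replicate 2 to 1.383 in replicate 6.

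In edgeR, the counts of genes that rose in the respiratory chain and the ribosome depended on which 1 Hz libraries were kept. Of 37 genes of complex I 10 rose, of 27 of complexes II to IV 8, and of 16 of ATP synthase 4. Without replicates 4 and 6 the numbers that rose were 0, 1 and 0. Leaving out replicate 4 alone gave 0, 2 and 0, and leaving out replicate 6 alone 0, 1 and 0. Leaving out replicate 5 alone gave 21, 15 and 8 (56.8%, 55.6% and 50%, against 21.6% of all genes). The mean of complex I stood 0.816 and 0.711 above the controls in replicates 4 and 6, and -0.133 to 0.129 in the other 4. Ndufb3, a subunit of complex I, ranged from 42.03 to 56.3 CPM (median 47.5) in the controls and from 45.2 to 101 CPM (median 57.7) at 1 Hz (log2(fold change) 0.48, adjusted p 0.025), and without replicates 4 and 6 its adjusted p was 0.57. Alone, leaving out 1 Hz replicate 4 or 6 or control replicate 3 or 4 gave it 0.13, 0.10, 0.052 and 0.059. Atp5l, a subunit of ATP synthase, gave 0.66, adjusted p 0.015, and 0.27 without both, 0.069 without 1 Hz replicate 4 and 0.055 without 1 Hz replicate 6. Cox6a1, a subunit of complex IV, rose (log2(fold change) 0.46, adjusted p 0.00088) and still passed without both (0.018).

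Of 83 cytosolic ribosomal proteins 69 rose (83.1%) and 1 fell (1.2%), with a median of 0.41. Leaving out replicate 4 or replicate 6 alone left 19 higher, leaving out both left 1 and a median of 0.17, and leaving out replicate 5 gave 79. The mean of the group stood at 0.145, 0.243, 0.375, 0.814, -0.054 and 0.828 against the controls in 1 Hz replicates 1 to 6. The control range was -0.121 to 0.164, so that replicates 2 and 3 lay above it too. With the length covariate 6 rose (7.23%, against 15.2% of all genes) and 1 fell. The median exon length of the group is 2825 bases, and the short genes behind the covariate reach up to 3697 bases. That fit can thus remove part of the group's own difference. On log2(TPM + 1) 23 rose (27.7%, against 3.64% of all genes) and 1 fell by limma. Many of these ribosomal proteins have processed pseudogenes with which reads can be shared. Rps24 ranged from 889 to 1121 CPM (median 964) in the controls and from 999 to 2408 CPM (median 1464) at 1 Hz (log2(fold change) 0.71, adjusted p 0.0038), and its adjusted p without both was 0.088. Rpl10 rose (log2(fold change) 0.40, adjusted p 0.0021) and passed without both (0.035). Rpl7l1, a relative of a ribosomal protein that works in ribosome assembly, fell from a median of 165 to 111 CPM (log2(fold change) -0.48, adjusted p 0.00016). Of 78 mitochondrial ribosomal proteins 10 rose and 7 fell, and without replicates 4 and 6 none rose and 15 fell in edgeR, and without replicate 4 or 6 alone 3 and 2 rose and 8 and 9 fell. Mrps17 (log2(fold change) -0.46, adjusted p 0.0011) and Mrpl22 (log2(fold change) -0.38, adjusted p 0.0054) fell with and without them.

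Few cell cycle genes passed: 3 of 36 rose (8.33%) and 4 fell (11.1%). E2f1, an activating E2F factor, ranged from 13.6 to 17.2 CPM (median 16.2) in the controls and from 21.1 to 28.7 CPM (median 24.1) at 1 Hz (log2(fold change) 0.61, standard error 0.09, adjusted p 1.6e-05), opposite to E2f2. Cdk1, the mitotic kinase, rose from a median of 8.77 to 14.3 CPM (log2(fold change) 0.62, adjusted p 0.00035), and Cdc20, an activator of the anaphase-promoting complex, fell from a median of 7.18 to 4.66 CPM (log2(fold change) -0.55, adjusted p 0.0028). Mki67 lay between 1.13 and 5.83 CPM (median 2.18) in the controls and between 0.976 and 6.01 CPM (median 2.35) at 1 Hz (log2(fold change) -0.13, adjusted p 0.81), Ccnb1 gave -0.19, adjusted p 0.64, and Top2a gave 0.44, adjusted p 0.076. The value for Top2a passed without replicates 4 and 6 (0.021), without 1 Hz replicate 6 alone (0.030) and without control replicate 2 alone (0.016).

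Markers of cell types other than muscle were few. None of 4 endothelial markers passed the filter on low counts, and their summed level was 0.0454 to 0.961 TPM in the controls and 0.0420 to 0.208 TPM at 1 Hz. Of 4 macrophage markers Cd68 alone passed, while Ptprc, Adgre1 and Csf1r did not, and the sums were 74.2 to 102.3 and 55.1 to 86.1 TPM. The 6 fibroblast markers summed to 144 to 193 TPM in the controls and 126 to 268 TPM at 1 Hz. Of the 5 tested 2 rose and 1 fell, the latter being Col1a1, given above with the collagens. The fibroblast markers Dcn, Lum, Pi16 and Pdgfra gave log2(fold changes) of 0.39, -0.49, 0.27 and 0.28 with adjusted p of 0.019, 0.30, 0.39 and 0.041. That of Pdgfra held in 5 of the 12 fits that each leave out 1 library and not without replicates 4 and 6 (0.17), and that of Dcn did not hold without 1 Hz replicate 3 (0.097) or control replicate 3 (0.051). The macrophage gene Cd68 (log2(fold change) 0.01, adjusted p 0.96), the chondrocyte factor Sox9 (log2(fold change) -0.14, adjusted p 0.34) and the osteoblast genes Runx2 (log2(fold change) 0.03, adjusted p 0.82), Alpl (log2(fold change) 0.32, adjusted p 0.33) and Bglap (log2(fold change) -0.55, adjusted p 0.13) did not pass. Of 6 adipocyte markers only Pparg, the adipocyte nuclear receptor, passed the filter on low counts. It ranged from 12.97 to 22.4 CPM (median 18.4) in the controls and from 23.1 to 33.1 CPM (median 27.3) at 1 Hz (log2(fold change) 0.56, standard error 0.14, adjusted p 0.0034). Tubb3, a beta-tubulin known from neurons and the only 1 of 5 neural markers tested, lay between 67.3 and 96.3 CPM (median 69.3) in the controls and between 34.1 and 49.3 CPM (median 45.9) at 1 Hz (log2(fold change) -0.82, standard error 0.11, adjusted p 3.4e-06). In both of these all 6 stimulated libraries lay outside the range of the controls.

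RNAs without a poly(A) tail should be rare after poly(A) selection. They made up 0.093 to 0.2% of TPM at 1 Hz and 0.059 to 0.112% in the controls, and 6 of 20 tested rose while 2 fell. Without replicate 4 alone 2 rose and 2 fell (10% each), and with the length covariate 1 rose and 3 fell. Rmrp, the RNA of an endoribonuclease, lay between 0 and 0.467 CPM in the controls and between 0.578 and 4.21 CPM at 1 Hz, a few reads per library (adjusted p 0.00093). Rn7sk, which holds back the elongation factor P-TEFb, rose from a median of 5.14 to 14.5 CPM (log2(fold change) 1.58, adjusted p 0.019), but not without replicates 4 and 6 (0.099) or 1 Hz replicate 4 alone (0.073). The labels state that low-input samples were depleted of ribosomal RNA, without saying which, and whether that bears on these values was not tested.

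The other groups were described by their counts. Of 18 genes known to respond to denervation 5 rose and 6 fell, and of 25 ATF4 targets 8 rose and 7 fell. Of 16 glucocorticoid and metallothionein genes 10 rose and 2 fell, 6 and 2 without replicate 4 and 5 and 2 without replicates 4 and 6. Of 20 aminoacyl-tRNA synthetases 1 rose and 6 fell, of 31 proteasome genes 1 and 4 (1 and 9 without replicate 4, 1 and 7 without replicate 6, 3 and 2 without replicate 5), and of 21 heat shock genes 2 and 2 (0 and 3 by edgeR without replicate 4). Of 17 dystrophin complex genes 2 rose and 4 fell, and of 12 genes of pyruvate dehydrogenase regulation 3 and 1 (2 and 2 without replicate 4, 1 and 3 without replicates 4 and 6).

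Compared directly with the other frequencies in the same fit, no gene passed between 1 Hz and 4 Hz in edgeR (0 of 13315), while 1465 genes had an unadjusted p under 0.05 (11%), and DESeq2 called 4 and DESeq2 with apeglm 2. Against 10 Hz, 1443 genes differed (10.8%), 664 higher at 1 Hz (4.99%) and 779 lower (5.85%). Myog averaged 203 CPM at 4 Hz and 487 at 10 Hz, and the difference of 1 Hz from 10 Hz was -1.14 (adjusted p 3.3e-11). Il6 averaged 4.22 CPM at 10 Hz (1.55, adjusted p 0.00050), and Gclc 84.8 (-0.89, 1.4e-05). At an adjusted p under 0.05 alone, 13.1% of genes were higher at 1 Hz than at 10 Hz and 14.8% lower. By the same measure 10 of 27 immediate early genes were higher and 1 lower, 13 of 25 p53 targets higher and 1 lower, and 13 of 24 NRF2 targets lower (54.2%).

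For some of the genes described above no difference between 1 Hz and 10 Hz was detected. Fbxo40 averaged 55.4 CPM at 10 Hz (-0.05, adjusted p 0.71), and Trim63 52.97 (0.10, 0.53). The same held for Chrnd (-0.09, 0.45), Dhcr7 (-0.07, 0.49) and Arntl (-0.16, 0.29). All 3 frequencies were set against the same 6 controls, so that the changes they share against control are not independent of each other.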

How the data were processed

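Libraries were made by the authors with a directional protocol and poly(A) selection by their methods, and read as paired ends. By the labels, low-input samples, which are not named, were depleted of ribosomal RNA. The deposited table gives estimated counts per gene, and a companion table deposited by the authors gives TPM, both made by the authors with nf-core/rnaseq (STAR and Salmon) on GRCm39. The submitters' processing notes also name BWA 0.7.12-r1039 and bedtools 2.25.0, and the role of BWA is not given in the sources used here, nor is the strand setting. For 108 of the 162 genes named here that overlap a gene on the opposite strand, reads of the pair cannot be told apart if strand was not used.

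Estimated counts were rounded to whole numbers (19% of the values above 0 were not whole) and tested with edgeR 4.0.16 (R 4.3.3): filterByExpr with a minimum count of 10 and total of 15, TMM factors and a robust quasi-likelihood fit over all 24 libraries with 1 mean per group. The fit was checked on simulated data of 12 libraries. These held none of the differences between libraries described above, so that the check does not bear on them. The biological coefficient of variation was 14.78%. CPM are edgeR's, on TMM-scaled library sizes. Libraries of a group differed by more than counting noise, and none were identical. Alternatives were other scalings and filters, the 12 libraries alone, the replicate number as a block, DESeq2 1.42.0 with and without apeglm 1.24.0, limma 3.58.1 on log2(TPM + 1) and log2(TPM + 0.1) for genes with at least 1 TPM in 6 libraries, and each library left out in turn. The fits without 1 Hz replicates 4 and 6 and with a length covariate were added after seeing the data.

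The groups compared and the 59 gene lists were chosen with earlier results of these data known. Genes were named by a rule: per direction, the 10 called genes of largest change whose mean log2 CPM reached 2 and whose stimulated libraries all lay outside the control range, the 5 of smallest p, up to 2 members per list and direction by p, and every member of lists with at most 12 tested. Predicted genes (symbols of Gm and digits, symbols ending in Rik, or bare identifiers) were left out of the rankings by change and by p. The rule takes 210 genes, of which 145 are named. The others stand in the counts of their lists. The 17 named outside it, which include Arc, Fosb, Btg2, Egr3, Ccn1, Hmox1, Gclm, Hmgcs1, Fbxo32 and Nr1d1, were chosen after their values were seen. Positions are from GENCODE (GRCm39), and promoters are RefSeq's on GRCm38.p6, with 12660 windows of 300 bases for 9882 tested genes; the 4 printed were chosen because they hold the motif.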

Additional observations from a re-analysis of the deposited data

Results flagged for a closer look

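In groups of 6, a library was picked out where its gap to the nearest other library was over 0.625 of the range of its group, and 19 of 336 values checked were picked out, while chance picks about 1 in 20. Among the 1 Hz libraries, replicate 5 had a first principal component score of -3.46 (12.3 to 15.3 in the others) and 31.7 CPM of Bdnf (47.9 to 56.2). Replicate 4 had 3221 CPM of Des (2122 to 2418), 77.3 CPM of Hadh (63.3 to 67.0) and 72.9 CPM of Cd68 (41.4 to 53.2). Replicate 6 had 42.4 CPM of Mrps17 (28.4 to 32.9) and 22.1 CPM of Adamts5 (24.7 to 25.9). Replicate 3 had 285.7 CPM of Dcn (161 to 195.0) and 110.6 CPM of Lpl (61.9 to 77.1), and replicate 1 had 6.47 CPM of Cdc20 (4.23 to 4.88).

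Among the controls, replicate 1 had 0.678% of TPM in ribosomal RNA genes (0.153 to 0.346% in the others), 140.0 CPM of H2-K1 (126 to 131) and 2.18 CPM of Alpl (1.07 to 1.31). Replicate 2 had 11.4 CPM of Top2a (5.26 to 7.52), replicate 3 had 80.5 CPM of Fstl3 (92.1 to 97.9), and replicate 5 had 13.6 CPM of E2f1 (15.9 to 17.2) and 1.94 CPM of Pi16 (1.41 to 1.60). Replicate 6 had 102.9 CPM of Fbxo40 (79.1 to 84.9) and 36.3 CPM of Foxo1 (27.9 to 31.0).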

How the results depend on the processing

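Of 1988 changed genes (958 higher, 1030 lower), the length covariate left 1310 (636 and 674). By limma, log2(TPM + 1) gave 205 higher and 1707 lower and log2(TPM + 0.1) 241 and 1942, and with no threshold on the fold change there were 4962 (2554 and 2408). Leaving out each library in turn gave 1651 (without 1 Hz replicate 4) to 2436 (without 1 Hz replicate 5) changed genes, 678 to 1235 higher and 931 to 1201 lower. Without 1 Hz replicates 4 and 6 there were 687 higher and 932 lower. Other scalings, filters, DESeq2 and the fit of the 12 libraries alone moved the total by less than 1.5 times. Between 1 Hz and 4 Hz, 0 calls became 4 by DESeq2, 2 with apeglm, 1 with the replicate block and 1 without 4 Hz replicate 6 (0 to 1 over the fits that each leave out 1 library). Between 1 Hz and 10 Hz, 1443 became 3713 with no threshold and 1024 to 1849 with a library left out. The cause of these differences was not tested.

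Of the 80 genes named as having risen, 75 passed without 1 Hz replicates 4 and 6, 73 with the length covariate and 54 on log2(TPM + 1), and of the 60 that fell 59, 59 and 59. The Ttn value reversed on both TPM scales, to -0.36 on log2(TPM + 1) and -0.38 on log2(TPM + 0.1). On log2(TPM + 1), where 3.64% of all genes were higher and 21.9% lower, 7 of 27 immediate early genes, 5 of 25 p53 targets, 2 of 25 endoplasmic reticulum genes, 1 of 21 interferon genes, 0 of 33 autophagy genes and 0 of 23 hypoxia targets rose, while 13 of 24 NRF2 targets, 7 of 18 myogenic factors and 6 of 23 hypoxia targets fell. Of 83 cytosolic ribosomal proteins 23 rose and 1 fell on that scale. No pairing by replicate number was seen: the correlation of deviations was -0.13 to 0.17, and 0 of 6 stimulated libraries correlated best with the control of its number. These values cannot exclude a batch marked by the numbers, because differences between single libraries also enter them. With the replicate block there were 1904 changed genes, 861 of them higher. Genes at a few CPM are limited by depth.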
